A study of Mus musculus with 2 samples.

Results

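Non-cycling CD8 T cells were chosen from 2 single-cell RNA-seq libraries of tumor immune cells by the unique molecular identifiers (UMIs, 1 per captured transcript) of a few marker genes. A cell was taken if mitochondrial genes made up under 10% of its UMIs and it held at least 2 UMIs of Cd3d, Cd3e and Cd3g together, at least 2 of Cd8a and Cd8b1 together, none of Cd4 or Foxp3, at most 1 of Mki67 and Top2a and at most 5 of C1qa, C1qb and C1qc. This left 371 of 12078 cells, 263 of 6284 in the Irg1+/+ library and 108 of 5794 in the library labelled Irg1-/-. Irg1-/- mice lack Irg1 in the whole body (the gene is now named Acod1, aconitate decarboxylase 1, the enzyme that makes itaconate), Irg1+/+ mice carry both copies, and neither group received another treatment. B16-F10 cells, a mouse melanoma line, were injected under the skin of female C57BL/6 mice of 8 to 10 weeks (the Irg1-/- line is on the C57BL/6J background) at 200000 cells per mouse. On day 10 the Cd45+ cells of tumor pieces of 100 mm3 were sorted, with 3 mice of a genotype pooled into 1 BD Rhapsody library. With 1 library per genotype there is no replicate and no test. Every interval given here is a 95% interval for counting error only. It is exact except for differences in percentage points, which combine the exact limits of both shares. Intervals of gene levels and of their ratios take each UMI as an independent draw. Where a few cells hold most UMIs of a gene, these intervals are too narrow even for the cells of 1 library. A 2-fold difference is a mark of size, not of significance. The files held 43617546 and 36432067 UMIs in 6408 and 5896 cells for Irg1+/+ and Irg1-/-.

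CD8 T cells recognise peptides on MHC class I through the T cell receptor and the CD8 co-receptor and kill target cells with perforin and granzymes, and they also release IFN-γ, TNF and chemokines such as CCL3, CCL4 and CCL5. Naive and memory cells carry CCR7 and the IL-7 receptor and recirculate through lymph nodes, whereas cells that stay in tumors under continued antigen gain inhibitory receptors such as PD-1, TIM-3 and LAG-3 together with the transcription factor TOX. Itaconate is made mainly by activated myeloid cells, so that Irg1 is not known as a T cell gene.

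The targeted gene was looked at first. Acod1 (chr14:103046977-103056573, GRCm38) had 40 UMIs in 27 of the Irg1+/+ CD8 T cells and 12 UMIs in 10 of those of the library labelled Irg1-/-, which is 35.7 CPM (interval 25.5 to 48.6) and 28.7 CPM (14.9 to 50.2), where CPM is the count of a gene scaled to the same total of UMIs in each gate. These intervals overlap, and the log2 ratio was -0.27 (-1.38 to 0.65). It was 0.30 without the cells dense in myeloid RNA that are described below. In C1q macrophages, cells with at least 20 UMIs of the C1q genes and none of Cd3 or Cd8, Acod1 stood at 88.5 and 146 CPM, so it was higher in the library labelled Irg1-/-. The labels give the genotypes, the transcript counts do not show the loss of Acod1 RNA, and whether the labels of the libraries were exchanged was not tested. In what follows Irg1-/- stands for the library labelled Irg1-/-, and every direction rests on that label.

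The rule used Cd8a, Cd8b1 and Cd3e, so their levels are a description and no check of the name. Cd8a, which encodes the CD8 alpha chain, stood at 1153 CPM in Irg1+/+ and 891 CPM in Irg1-/-, Cd8b1 at 933 and 666 CPM and Cd3e at 865 and 738 CPM. The check of the name rests on genes that the rule did not use. Trac (the constant part of the T cell receptor alpha chain) had a UMI in 243 of 263 and 96 of 108 cells, and Nkg7, a granule membrane protein of killer cells, in 243 and 90. Pdcd1, which encodes PD-1, had a UMI in 114 and 32 cells and Gzmb, granzyme B, in 207 and 70. No share of cells in another gate is set beside the Trac and Nkg7 counts, so the check rests on Pdcd1 and Gzmb. Both are set beside C1q macrophages only, so this check does not separate the cells from other T cells or natural killer cells. For comparison at equal depth, each cell of at least 2000 UMIs was thinned to 2000 (232 and 86 CD8 T cells, which leaves out 31 and 22). Pdcd1 was then found in 31.9% and 22.1% of CD8 T cells against 2.6% and 0.6% of C1q macrophages, and Gzmb in 67.2% and 48.8% against 18.4% and 22.1%.

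Taken in order, the Cd3 step removed the most cells, and the Cd8 step was the one that by itself kept out the most (415 and 304 cells that passed all other steps). Of 2381 and 1385 cells with at least 2 Cd3 UMIs, 924 and 441 passed the Cd8 step, 705 and 369 also had no Cd4, 636 and 350 had no Foxp3, 338 and 155 were not cycling, and 263 and 108 were left after the limit on C1q. Just inside the Cd8 threshold, at 2 UMIs, were 25 and 17 cells with Trac at 861 and 1031 CPM. Just outside, at 1 UMI, were 103 and 61 cells with Trac at 342 and 349 CPM. Cells at 2 Cd8 UMIs had Lyz2, a macrophage marker, at 4184 and 2558 CPM. H2-Aa, an MHC class II gene, was at 3774 and 4162 CPM in them. At the Cd3 threshold, 26 and 18 cells with 2 UMIs had Trac at 628 and 597 CPM. Their Lyz2 was at 4233 and 2662 CPM and H2-Aa at 3165 and 6986 CPM. The 43 and 25 cells with 1 Cd3 UMI had Trac at 396 and 337 CPM. In the whole gate Trac was at 1486 and 1308, Lyz2 at 1800 and 2162 and H2-Aa at 1977 and 2713 CPM. Just inside the C1q limit, at 5 UMIs, were 28 and 8 cells, and at 6 UMIs 11 and 8 cells were left out, with Nkg7 at 1503 and 895 CPM inside and 648 and 1991 CPM outside. The CD8 T cells had medians of 3516 and 2884 UMIs and 1784 and 1578 genes, so that the Irg1-/- cells were somewhat shallower. Of 36 cell barcodes found in both libraries, 3 were CD8 T cells of Irg1+/+ and 0 were CD8 T cells of Irg1-/-.

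RNA of other cell types was present in the gate and differed between the libraries. Only 40 and 19 of the CD8 T cells had no C1q UMI. The 12 macrophage markers, led by Lyz2 (lysozyme), summed to 6069 and 6566 CPM, and all 12 were measured. The 10 dendritic cell markers, led by the MHC class II gene H2-Ab1, summed to 7892 and 10149 CPM. Markers of B cells (7 genes, most of it Igkc) summed to 283 and 453 CPM, of natural killer (NK) cells (10 genes, most of it Gzma, which CD8 T cells also make) to 951 and 661 CPM, of neutrophils (6 genes) to 46.4 and 50.3 CPM, and of melanoma cells (8 genes, led by Dct) to 178 and 47.9 CPM. The 5 erythroid genes had 0 UMIs. Thus the dendritic cell, B cell and macrophage sums were higher in Irg1-/- and the NK and melanoma sums higher in Irg1+/+. In a small number of cells the myeloid RNA was dense: 23 and 11 cells had at least 50 UMIs of H2-Aa, H2-Ab1, H2-Eb1 and Cd74, with medians of 8470 and 9263 UMIs, and they held 16.7% and 24.5% of all UMIs of the gate. They carried 71.3% and 55.6% of the Cxcl9 UMIs and 48.7% and 69.8% of those of Fscn1, a gene of mature dendritic cells, but 7.1% and 9.2% of Trac. No doublet caller was run, and whether these are doublets was not tested. Values without them are given below for those named genes whose log2 ratio was set against them and turned in sign or moved by over 1.5 times.

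Non-cycling CD8 T cells were a larger share of the Irg1+/+ library. They were 4.19% (3.70 to 4.71) of kept cells in Irg1+/+ and 1.86% (1.53 to 2.25) in Irg1-/-, a 2.25-fold difference of -2.32 percentage points (-2.94 to -1.71). Among cells with at least 2 Cd3 UMIs the shares were 11.05% and 7.80%, 1.42-fold apart. So the size of the difference depended on what the cells were counted against. Foxp3 T cells showed a similar pattern with 2.36% and 1.04% of kept cells, and cycling CD8 T cells stood at 1.51% and 1.12%. The non-cycling conventional CD4 T cells made up the same share in both libraries, 1.86% and 1.86%, whereas NK cells were 2.43% and 6.196% and C1q macrophages 1.30% and 2.87%. Of all gated CD8 T cells, 26.5% (22.03 to 31.4) in Irg1+/+ and 37.6% (30.3 to 45.2) in Irg1-/- were cycling, a difference of 11.04 points (2.30 to 19.9). Shares of 1 library come from 1 pool of tumors, and the spread between mice is not known.

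**Figure D1:**
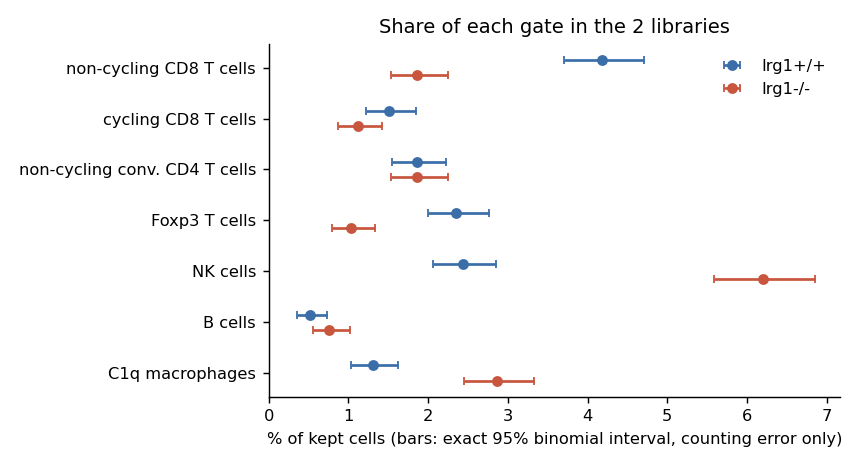
Share of kept cells (%, x axis) in each marker gate for the Irg1+/+ library (blue) and the library labelled Irg1-/- (red), with exact 95% binomial intervals for counting error. The non-cycling CD8 T cells are at 4.19% and 1.86%, NK cells are shifted the other way at 2.43% and 6.196%, and conventional CD4 T cells coincide.

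Across all genes the CD8 T cells of the libraries were alike, with the larger differences in a small set. A minimum of 50 UMIs in the sum of both libraries left 5172 genes. Of these 50 (0.967%) were at least 2-fold higher in Irg1-/- and 75 (1.45%) at least 2-fold lower. The intervals of all of these lay away from 0, but the minimum of 50 UMIs with the 2-fold limit fixes that outcome, so it is no further support. With at least 1 Cd8 UMI asked for in place of 2, 16 of the 50 and 36 of the 75 were called again. The median log2 ratio of the 7678 genes with at least 20 UMIs was -0.0079, and 6.59% of them had an interval above 0 and 6.25% an interval below 0. These shares are the background for the gene groups that follow. Ribosomal protein genes (79) had a median of 0.08. Without the cells rich in MHC class II RNA the counts were 53 and 71, but only 18 of the 50 and 43 of the 75 genes were again past 2-fold.

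**Figure D2:**
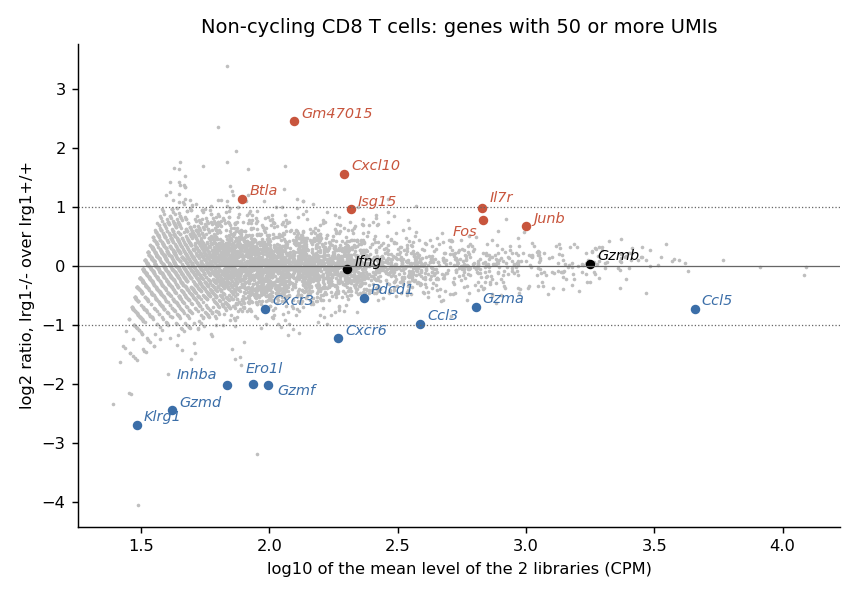
Each point is 1 gene with at least 50 UMIs in the non-cycling CD8 T cells, with its mean level in the libraries (x axis, log10 of CPM) and the log2 ratio of Irg1-/- over Irg1+/+ (y axis). Dotted lines mark 2-fold. Named genes that were higher in Irg1-/- are red, those lower blue and Gzmb and Ifng black, and most genes of high level lie between the dotted lines.

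Genes of naive and memory T cells were on balance higher in Irg1-/-. Of 18 such genes 17 were measured with at least 20 UMIs, their median log2 ratio was 0.42, 6 had an interval above 0 and none below. This median was above 0 in 9 of 10 alternatives (-0.40 to 0.57). Il7r, the IL-7 receptor that keeps resting T cells alive, was at 452 and 896 CPM, just under 2-fold (0.99, 0.79 to 1.18), and its intervals (414 to 494 and 807 to 991 CPM) do not overlap. Satb1, a chromatin organiser of T cells, was at 201 and 323 CPM (0.69), Klf2, which drives the genes of lymph node exit, at 188 and 275 CPM (0.55), and S1pr1, its target for exit, at 129 and 187 CPM (0.53). Tcf7, which encodes the memory factor TCF-1, was at 287 and 311 CPM and its interval spanned 0 (-0.19 to 0.41). In the same list Cd27, Ltb and Slamf6 had log2 ratios of -0.30, -0.31 and -0.35 with intervals over 0. Ccr7 was at 139 and 228 CPM (0.71), but the cells rich in MHC class II RNA held 12.2% of its UMIs in Irg1+/+ and 58.9% in Irg1-/-, and without them its log2 ratio was -0.23.

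The Il7r difference was seen in more than a few cells. At 2000 UMIs per cell Il7r was found in 34.1% (79 of 232) of Irg1+/+ and 60.5% (52 of 86) of Irg1-/- CD8 T cells, and Satb1 in 28.4% and 47.7%, against 5.26% and 5.52% of C1q macrophages. In C1q macrophages Il7r was found in 34.2% and 24.5%, so that in Irg1+/+ its share was not above that of macrophages, and no expression is read from that share. In Irg1-/- it was above. In conventional CD4 T cells, where Il7r stood at 1339 and 1517 CPM, its log2 ratio was 0.18, and in NK cells it was -1.23. Over all cells outside the gate it was -0.56. Among the 40 and 19 CD8 T cells without any C1q UMI the Il7r ratio was 0.43, and the part of myeloid RNA in the value was not tested.

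**Figure D3:**
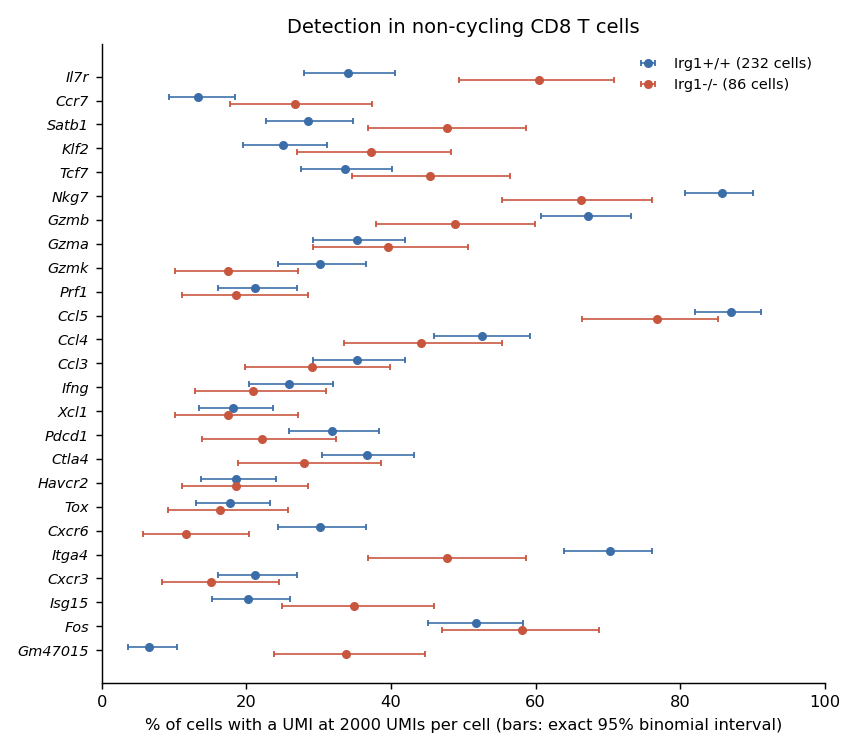
Percentage of non-cycling CD8 T cells with a UMI of each gene (x axis) after every cell was thinned to 2000 UMIs, for Irg1+/+ (blue, 232 cells) and Irg1-/- (red, 86 cells), with exact 95% binomial intervals. Il7r, Satb1 and Gm47015 lie to the right in Irg1-/-, whereas Nkg7, Gzmb, Cxcr6 and Itga4 lie to the right in Irg1+/+, and the bars of Ifng, Xcl1, Havcr2 and Tox overlap widely.

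Genes of the cytotoxic granule were on balance lower in Irg1-/-. All 16 genes of this list were measured, with a median of -0.33, and 8 had an interval below 0 and none above. Gzma, granzyme A, was at 786 CPM (735 to 840) in Irg1+/+ and 486 CPM (422 to 558) in Irg1-/- (log2 ratio -0.69), and Gzmk, granzyme K of memory-like effector cells, at 223 and 125 CPM (-0.83). Nkg7 was at 1431 and 1106 CPM (-0.37) and Prf1, the pore-forming perforin, at 216 and 156 CPM (-0.46). These were all under 2-fold. Gzmb was at 1756 CPM (1679 to 1835) and 1801 CPM (1674 to 1934), with a log2 ratio of 0.04 (-0.09 to 0.16). In Irg1-/- 5 cells held 55.5% of the Gzmb UMIs, against 23.1% in Irg1+/+, and without the cells rich in MHC class II RNA its ratio was -0.37. The share of cells with Gzmb and its mean level therefore point different ways, and no order of the libraries is read for it. Srgn, the proteoglycan of the granule core, and Serpinb9, which shields the killer cell from granzyme B, had log2 ratios of -0.06 and 0.00. In NK cells and cycling CD8 T cells the same list had medians of 0.17 and 0.28.

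With all cells counted, the members of the granzyme cluster past 2-fold were Gzmf and Gzmd. Gzmf (chr14:56205263-56211417, minus strand) had 178 UMIs in 39 Irg1+/+ cells and 16 UMIs in 7 Irg1-/- cells, that is 159 and 38.3 CPM and a log2 ratio of -2.01 (-2.89 to -1.31). Gzmd, which lies on the same strand at chr14:56129556-56132608, had 80 and 5 UMIs (-2.45, -4.24 to -1.29) and was named after its values were seen. The size of the Gzmd ratio moved with the processing, from -0.93 with no C1q UMI to -3.93 after thinning. The neighbour Gzmc was at 416 and 299 CPM (-0.47), but it was past 2-fold lower in 4 of 11 alternatives, whose range was -1.65 to -0.21. Without the cells dense in myeloid RNA Gzmc had -1.49, beside -1.87 for Gzmf and -2.18 for Gzmd. Gzme, with 34 and 10 UMIs, had an interval over 0. These transcripts are concentrated: 5 cells held 60.1% and 87.5% of the Gzmf UMIs. Gzmf was also lower in the other gates, with log2 ratios of -1.63 in cycling CD8 T cells, -2.62 in C1q macrophages and -2.40 over all cells outside the gate, although the remaining gates had under 20 UMIs. Of the 50-base windows of their transcripts, 7.36% of Gzmf and 21.9% of Gzmd are shared with other granzymes, so that reads of Gzmd are the less certain, while Gzmb shares none.

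Promoters of this cluster are shown for Gzmf, Gzmd and Gzmc, which lie in 1 gene cluster and had a log2 ratio below 0 each. Gzme lies there too with an interval over 0, and its window is not shown. It differs from Gzmf in 5 of 80 bases and lacks the letters TGACGTCA described below. The windows of 80 bases below were aligned to Gzmf within the promoter of each gene in RefSeq and end 29, 8 and 4 bases before its start (GRCm38.p6, minus strand, 5′ to 3′), at chr14:56211436-56211515 for Gzmf, chr14:56132601-56132680 for Gzmd and chr14:56234661-56234740 for Gzmc, and capitals mark bases unlike Gzmf. The gene positions above are those of GENCODE M21, in which Gzmf and Gzmd start a few bases earlier than in RefSeq, so that the window of Gzmd ends inside its GENCODE gene.
Gzmf: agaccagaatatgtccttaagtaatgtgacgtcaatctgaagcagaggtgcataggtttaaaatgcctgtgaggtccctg
Gzmd: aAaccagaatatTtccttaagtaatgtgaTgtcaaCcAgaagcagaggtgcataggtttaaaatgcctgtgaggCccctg
Gzmc: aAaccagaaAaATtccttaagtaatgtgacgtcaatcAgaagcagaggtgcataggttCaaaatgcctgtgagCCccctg
Gzmd differs from Gzmf in 6 of 80 bases and Gzmc in 8. The letters TGACGTCA, the cAMP response element, which read the same on both strands, are in the windows of Gzmf and Gzmc but not in that of Gzmd. They are also found in the window of Gzmg, thus in 3 of 5 promoters compared in the cluster, and in 588 of the 32851 promoters in RefSeq (250 bases before to 50 after a start, 1.79%). A match is a description of letters only.

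Secreted factors of CD8 T cells were on balance also lower in Irg1-/-. Of 16 genes 11 were measured, with a median of -0.41, 1 interval above 0 and 5 below. Ccl5, a chemokine that draws T cells and monocytes, was at 5659 CPM (5520 to 5800) in Irg1+/+ and 3420 CPM (3245 to 3602) in Irg1-/-, with a log2 ratio of -0.73 (-0.81 to -0.64). Ccl4 and Ccl3, both chemokines that draw myeloid and T cells, were at 927 and 599 CPM (-0.63) and at 514 and 259 CPM (-0.99). Ccl5 was lower in cycling CD8 T cells as well (-0.71) and in conventional CD4 T cells (-0.52), while in NK cells it was 0.26. Among the 40 and 19 CD8 T cells without C1q UMIs its ratio was 0.39, and those of Gzma and Gzmk were 1.21 and 0.28, so that the direction of these 3 genes turned in that small subset, while Ccl4, Nkg7 and Cxcr6 kept theirs (-2.03, -0.27 and -0.93). Csf1, the macrophage growth factor, had 75 and 10 UMIs (-1.42) and, with Spp1 described below, was past 2-fold with all cells counted, but it had -0.69 by the mean of each cell's CPM and -0.82 after thinning. The main effector cytokines differed less: Ifng, which encodes IFN-γ, was at 205 and 196 CPM (-0.06, -0.45 to 0.31) and Tnf at 122 and 91.0 CPM (-0.41, -0.98 to 0.10), both with intervals over 0. Without the cells dense in myeloid RNA they had 0.00 and -0.27. The exception in the list was Xcl1, which attracts cross-presenting dendritic cells, at 409 and 541 CPM (0.41), but 5 cells held 85.0% of its UMIs in Irg1-/- and its ratio was -0.44 without the cells rich in MHC class II RNA.

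Inhibitory receptors and the transcription factors linked to exhaustion had median log2 ratios slightly below 0, with members on both sides. Of 14 receptors 13 were measured with a median of -0.27, 1 interval above 0 and 4 below. Pdcd1 was at 277 CPM (247 to 309) in Irg1+/+ and 189 CPM (150 to 236) in Irg1-/- (-0.54), Ctla4 at 297 and 235 CPM (-0.34) and Cd160 had 127 and 26 UMIs (-0.84). Havcr2 (TIM-3), Lag3 and Tigit had log2 ratios of -0.27, -0.35 and -0.25 with intervals over 0. The signs of Havcr2 and Lag3 were not stable, since Havcr2 had 0.10 without the cells dense in myeloid RNA and 0.21 after thinning, and Lag3 had 0.51 by the mean of each cell's CPM. Btla, an inhibitory receptor that resting T cells carry, was the exception at 49.1 and 108 CPM, a log2 ratio of 1.14 (0.53 to 1.73). Of the factors 15 of 16 were measured, with a median of -0.38, 1 interval above 0 and 6 below. This median ranged from -0.37 to -0.02 over 10 alternatives, and the summed level of the factors was nearly equal at 4428 and 4275 CPM (-0.05, -0.13 to 0.03). Tox was at 156 and 110 CPM (-0.49), and Ikzf2, Helios, was lower with 188 and 33 UMIs (-1.07), past 2-fold in 6 of 10 alternatives and -0.80 with at least 4 Cd8 UMIs. Nr4a1, which is quickly induced by receptor signaling, was higher (617 and 934 CPM, 0.60), while its relatives Nr4a2 and Nr4a3 had -0.04 and 0.04.

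Receptors that hold T cells in tissue were on balance lower in Irg1-/-. Of 18 genes of residency and homing 16 were measured, with a median of -0.29, and 10 had an interval below 0 and 2 above. Cxcr6, the receptor for CXCL16 on resident T cells, was at 261 CPM (232 to 292) in Irg1+/+ and 110 CPM (80.6 to 147) in Irg1-/-, a log2 ratio of -1.23 (-1.72 to -0.79). It was found in 30.2% and 11.6% of the thinned cells, against 1.3% and 0.6% of C1q macrophages. Its ligand gene Cxcl16 was higher in the same cells of Irg1-/-, at 66.0 and 163 CPM (1.30). The integrin chains Itga1 and Itgae of resident cells had 82 and 12 UMIs (-1.30) and 47 and 7 UMIs (-1.24). Itga1 was past 2-fold in 6 of 10 alternatives and had -0.59 after thinning and -0.93 without the cells dense in myeloid RNA. Itga4 was at 868 and 608 CPM (-0.51) and Itgal (LFA-1) at 606 and 433 CPM (-0.48). Cxcr3, the receptor for CXCL9 and CXCL10, was at 120 and 71.8 CPM (-0.73). On the other side Cxcr4, which holds cells in marrow and stroma, was higher (0.60), as was Runx3 (0.36). In conventional CD4 T cells Cxcr6 had -0.68 and Cxcr3 0.56, and in cycling CD8 T cells they had -0.26 and -1.15.

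T cell receptor components and costimulatory receptors were on balance lower by small amounts. Each median kept its sign in 9 of 10 alternatives (-0.38 to 0.10 and -0.40 to 0.13). All 20 signaling genes were measured, with a median of -0.21, 0 intervals above 0 and 9 below, and Lat, the adaptor below the receptor, was at 402 and 285 CPM (-0.49). Cd5, which dampens receptor signals, was at 159 and 79.0 CPM (-0.99). Of 12 costimulatory genes 11 were measured (median -0.37, 0 above and 5 below), with Cd28 at 366 and 256 CPM (-0.51) and Cd226 with 263 and 58 UMIs (-0.75). Icos and Tnfrsf9 (4-1BB) had -0.16 and -0.10 with intervals over 0. Among genes of effector differentiation (15 of 16 measured, median -0.17, 3 above and 4 below) Klrg1, a receptor of short-lived effector cells, had 60 UMIs in 41 Irg1+/+ cells and 3 UMIs in 3 Irg1-/- cells. Its log2 ratio was -2.69 (-5.22 to -1.28), it was named after its values were seen, and 63 UMIs is a small sum. In Foxp3 T cells and NK cells Klrg1 was higher in Irg1-/-, at 0.64 and 0.91. The 18 cytokine receptors had a median of -0.06, with Il18r1 at 0.65, Il4ra at 0.74 and Il2rb, the shared chain for IL-2 and IL-15, at -0.02.

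With all cells counted, more interferon response genes had an interval above 0 in Irg1-/- than below, although the medians depended on which cells were kept. Of 21 type II genes all were measured, with a median of 0.41, 11 intervals above 0 and 1 below, and this median was above 0 in 9 of 10 alternatives (-0.40 to 0.45). Irf1, the first factor of the response, was at 624 and 848 CPM (0.44), Gbp2, a guanylate-binding protein, at 647 and 750 CPM (0.21), and Iigp1, an interferon-induced GTPase, at 74.9 and 148 CPM (0.99). Cxcl10, the chemokine for CXCR3, was at 99.0 CPM (81.5 to 119) and 292 CPM (243 to 349), with a log2 ratio of 1.56 (1.18 to 1.94), but it came from 49 and 21 cells, of which 5 held 43.2% and 76.2% of the UMIs. It was -0.04 when at least 4 Cd8 UMIs were asked for. Cxcl9 was at 383 and 560 CPM (0.55), with 1.32 without the cells dense in myeloid RNA and -0.37 with at least 4 Cd8 UMIs. It had -1.05 in cycling CD8 T cells and -1.01 in conventional CD4 T cells. Of 43 type I genes 40 were measured with a median of 0.14, 8 above and 2 below, and this median was above 0 in 8 of 10 alternatives (-0.92 to 0.27). Oasl2 (86.5 and 184 CPM, 1.09), Isg15 (141 and 273 CPM, 0.96) and Irf7 (95.5 and 182 CPM, 0.93) were near 2-fold, and Oasl2 was past it in 5 of 11 alternatives, with 0.60 after thinning and 0.51 with no C1q UMI. Without the cells dense in myeloid RNA Irf7 had 1.48, and in cells with no C1q UMI Isg15 had -1.20. Ifit1 was lower (-0.52). Over all cells outside the gate the medians were 0.43 for type II and 0.53 for type I, and Isg15 had 0.90, so that it was also seen outside the gate. The type II median was -0.23 in conventional CD4 T cells, -0.04 in Foxp3 T cells and -0.01 in NK cells. It was 0.10 in cycling CD8 T cells and 0.72 in C1q macrophages. In the same order the type I medians were 0.35, 0.11, 0.16, 0.13 and 0.60. MHC class I presentation genes (20 measured, led by B2m) had a median of 0.10, with 6 above and 0 below.

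Immediate early genes were higher too. All 26 were measured, with a median of 0.36, 16 intervals above 0 and 2 below. Fos and Junb, which form the AP-1 factor, were at 503 and 862 CPM (0.78) and at 770 and 1224 CPM (0.67), and Nfkbiz, a nuclear regulator of NF-κB, had 208 and 140 UMIs (0.85). Against this trend Egr3 and Myc were lower, with 81 and 14 UMIs (-1.07) and 66 and 13 UMIs (-0.88). The median was above 0 in every other gate as well, with 0.37 in Foxp3 T cells and 0.28 over all cells outside the gate. It was only 0.08 in cycling CD8 T cells, with 8 intervals above 0 and 6 below. The summed level there had a log2 ratio of 0.02 (-0.03 to 0.07), and that of conventional CD4 T cells was 0.05. These genes are also known to respond to tissue dissociation, whose part was not tested. The 16 heat shock genes had a median of 0.02, and genes of glycolysis (-0.06), of the TCA cycle (-0.05) and of the cell cycle (-0.05) were near 0.

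Some of the remaining genes with the largest differences differed in other gates as well, and others did not. Gm47015, a long noncoding RNA gene at chr10:79412962-79417905 (GRCm38, minus strand), was at 38.4 and 211 CPM in CD8 T cells (2.45, 1.92 to 3.02) and was higher in each of the other gates, with 1.79 in cycling CD8 T cells and 2.29 in conventional CD4 T cells, and 2.93 over all cells outside the gate. Gpnmb and Spp1 (osteopontin), both made by macrophages and tumor cells, were lower in CD8 T cells (-1.68 and -1.55) and over all cells outside the gate (-1.37 and -1.34). Inhba, a subunit of activin, was at 111 and 26.3 CPM (-2.01), with 76.6% of its Irg1+/+ UMIs in 5 cells, and its log2 ratio was -2.43 in cycling CD8 T cells but 0.12 in NK cells and 0.30 in C1q macrophages. Ero1l, an oxidase of the endoplasmic reticulum that is induced in hypoxia, was at 138 and 33.5 CPM (-1.998, -2.95 to -1.25) with UMIs in 78 and 14 cells, while it had -0.18 in conventional CD4 T cells and -0.14 in C1q macrophages. Bcl3, a cofactor of NF-κB (1.20), Synj1, a phosphoinositide phosphatase (1.09), Ifi205, an interferon-induced gene (1.09), and Tmem176b, a membrane protein of myeloid cells (1.68), were higher. Crim1 (-1.41), Dctn4, a dynactin subunit (-1.28), and Lats1, a kinase of the Hippo pathway (-1.18), were lower. Synj1 was past 2-fold in 5 of 10 alternatives (0.63 at the lowest) and Lats1 in 6 of 10 (-0.50 after thinning), whereas Ifi205 and Dctn4 were past it in 9 of 10, with 0.43 and -0.68 in the other. Ifitm1, at 1.12, was 0.45 without the cells rich in MHC class II RNA. Trgc2, a gamma chain constant gene that cells with alpha beta receptors can also transcribe, was at 111 and 35.9 CPM (-1.58), and in cycling CD8 T cells at 25.4 and 79.0 CPM.

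**Figure D4:**
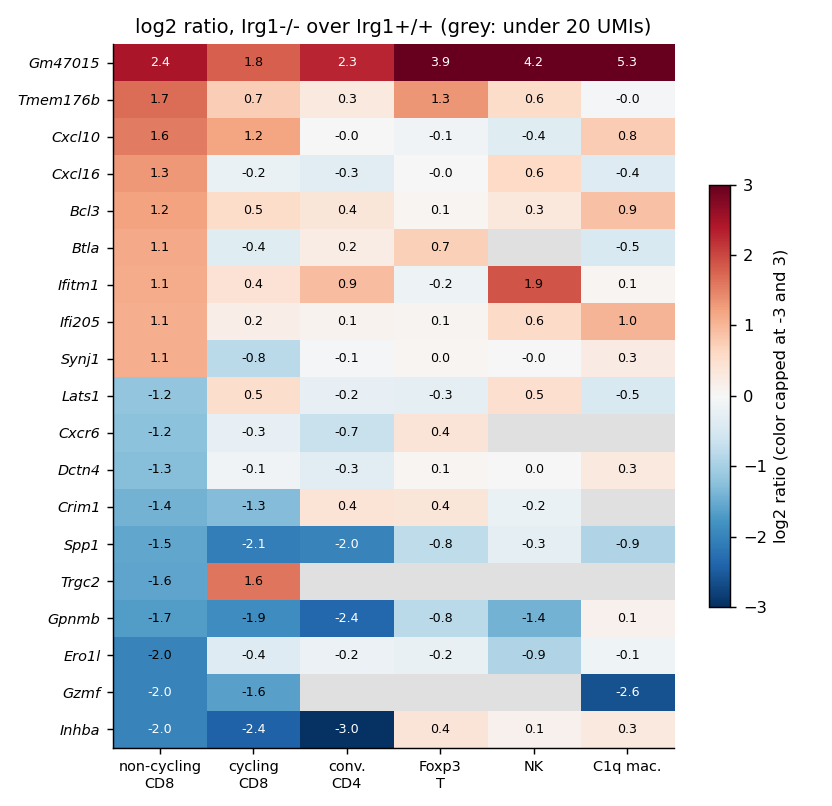
Log2 ratio of Irg1-/- over Irg1+/+ (color and printed value) for 9 of the highest and the 10 lowest genes of the non-cycling CD8 T cells (rows) in 6 gates (columns), with grey where a gene had under 20 UMIs and color capped at -3 and 3. The value of Gm47015 in C1q macrophages comes from 0 UMIs in Irg1+/+ and depends on the 0.5 UMIs added. Gm47015 is positive and Spp1 negative in each column, while Btla and Ero1l are smaller outside the first column.

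The cells were then split by the inhibitory receptors Pdcd1, Havcr2 and Lag3, as ranges of counts and not as types. Cells with at least 2 UMIs of the 3 genes were 37.6% (99 of 263) of Irg1+/+ and 25.9% (28 of 108) of Irg1-/- CD8 T cells, a difference of -11.7 points (-21.8 to -0.698). Cells with none were 45.6% (120) and 57.4% (62). After thinning the shares were 23.7% and 15.1% with at least 2 UMIs (difference -8.59 points, -17.7 to 2.16) and 55.2% and 65.1% with none (9.94 points, -2.87 to 21.9), so that at equal depth both intervals spanned 0. Many cells lay near the limits, since 44 and 18 had 1 UMI and 25 and 10 had 2 UMIs. The cells with at least 2 UMIs were also deeper, with medians of 4970 and 4915 UMIs against 3023 and 2594 in those with none.

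Most genes named here that the split did not use differed between the ranges in the same direction in both libraries. With at least 2 UMIs over none, Gzmc had log2 ratios of 3.11 in Irg1+/+ and 5.05 in Irg1-/-, Xcl1 3.22 and 4.67, Tnfrsf9 2.45 and 3.83, Prf1 2.26 and 1.68, Tox 1.91 and 3.12, Cxcr6 1.61 and 1.92 and Ifng 0.86 and 1.31. Gzmc, Prf1 and Ifng are effector genes, whereas Tox was listed above with exhaustion and Cxcr6 with residency. Lower in the cells with at least 2 UMIs were Satb1 (-1.26 and -3.05), S1pr1 (-1.68 and -2.14), Il7r (-1.44 and -1.59), Klf2 (-1.13 and -1.64), Bcl2, the survival factor (-1.58 and -1.25), and Tcf7 (-0.79 and -1.92). Of the Irg1-/- UMIs in the gate 5 cells held 86.4% for Gzmc and 85.0% for Xcl1, so that their sizes in Irg1-/- rest on few cells. Gzmb was 0.51 (0.37 to 0.66) in Irg1+/+ and 2.40 in Irg1-/-, where 5 cells of the gate held 55.5% of its UMIs, so that the size in Irg1-/- rests on few cells. Ccl5 went the other way from most effector genes, at -1.45 and -1.34, as did Gzma at -1.37 and -1.98, while Gzmk had -1.57 in Irg1+/+ and 0.50 in Irg1-/-. Ccr7 had 1.01 in Irg1+/+ and -1.05 in Irg1-/-. Of 9 pairs of genes looked at in the same thinned cell, 7 had an interval of the difference that spanned 0, such as Pdcd1 with Tox (1.84 points, -5.24 to 10.9) and Gzmb with Il7r (5.15 points, -4.95 to 16.5). Pdcd1 and Tcf7 were seen together in 11.6% (7.81 to 16.5) of Irg1+/+ and 3.49% (0.73 to 9.86) of Irg1-/- cells, and Ccl5 and Gzmb in 61.6% and 39.5%.

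**Figure D5:**
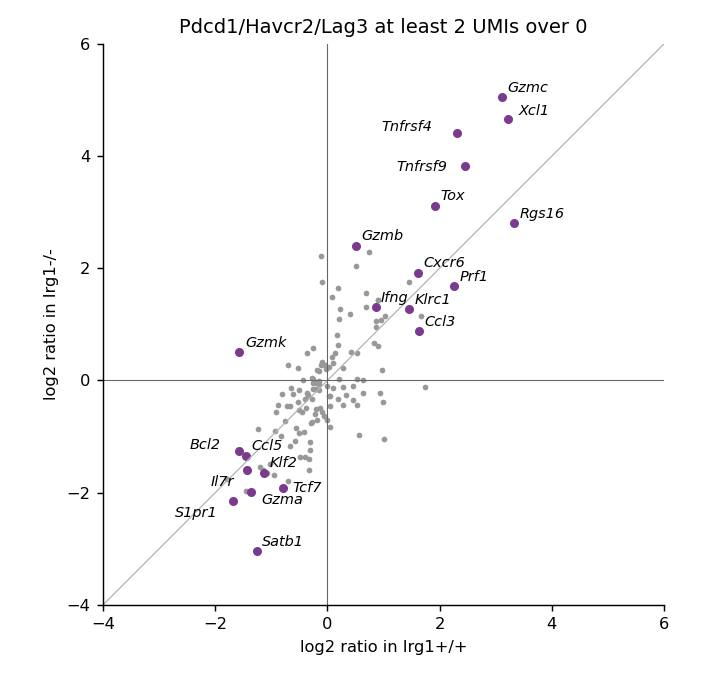
Log2 ratio of CD8 T cells with at least 2 UMIs of Pdcd1, Havcr2 and Lag3 over those with none in Irg1+/+ (x axis) and Irg1-/- (y axis) for genes of the fixed lists (each point a gene, the diagonal marks equal values). Gzmc, Xcl1, Tnfrsf9, Tox and Cxcr6 lie in the upper right quadrant and Satb1, S1pr1, Il7r and Tcf7 in the lower left.

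Receptor V segments were captured in a minority of cells and were spread. A Trbv segment, the variable part of the beta chain, had a UMI in 72 of 263 (27.4%) Irg1+/+ and 21 of 108 (19.4%) Irg1-/- CD8 T cells, against 2 of 82 and 1 of 166 C1q macrophages. One segment could be assigned in 69 and 21 cells, with 17 and 11 different segments. The most frequent was Trbv29 in Irg1+/+ (10 of 69, 14.5%, 7.17 to 25.04), followed by Trbv2 (9 of 69). In Irg1-/- Trbv13-2, Trbv2 and Trbv20 were each found in 3 of 21 cells. Segment use was not compared between libraries with so few cells, and clonal expansion cannot be read from V segments alone.

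To see what set these cells apart in both libraries, they were compared with conventional CD4 T cells (Cd4 UMI, no Cd8 or Foxp3) and NK cells (at least 2 UMIs of Ncr1 and Klrb1c, none of Cd3, Cd8 or Cd4). Against CD4 T cells 3091 genes were compared, of which 16 (0.518%) were at least 2-fold higher and 14 (0.453%) at least 2-fold lower in both libraries. Xcl1 had the largest difference, at 409 CPM against 37.7 CPM in Irg1+/+ and 541 against 9.36 CPM in Irg1-/-, followed by Klrc1 (the NKG2A chain), Gzmc, Nkg7 (1431 against 482 and 1106 against 409 CPM), Ccl5, Atp8b4 and Gzmb (1756 against 528 and 1801 against 815 CPM). Without the cells dense in myeloid RNA Gzmb was under 2-fold in Irg1-/- (1541 against 815 CPM, 0.92), and Xcl1 and Gzmc fell there to 282 and 171 CPM but stayed past 2-fold in both libraries. Lower in CD8 T cells were Maf (85.7 against 407 and 101 against 562 CPM), a factor of helper cells, Tmem64, Ramp3, Odc1 and Icos (639 against 1636 and 570 against 1617 CPM). Cytotoxic granule genes had medians of 1.25 and 0.82 over 12 genes, 5 of them 2-fold higher in both libraries, where all genes had -0.03 and -0.03. Immediate early genes were lower in CD8 than in CD4 T cells, with medians of -0.44 and -0.28 over 23 genes and none past 2-fold in both.

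Against NK cells 4740 genes were compared, and 69 (1.46%) were 2-fold higher and 122 (2.57%) 2-fold lower in both libraries. The higher genes were led by Trac (1486 against 160 and 1308 against 117 CPM), Lat and Trbc2, which follow from a gate that asked for Cd3. Beyond these were Ctla4 (297 against 74.4 and 235 against 53.2 CPM), Gpr183, a receptor that guides lymphocytes by oxysterols, Havcr2 and Icos. Ccr7 was past 2-fold with all cells counted, but without the cells dense in myeloid RNA it was at 147 against 46.5 and 124 against 64.8 CPM, under 2-fold in Irg1-/- (0.94). The lower genes were led by the Ly49 receptors of NK cells, with Klra8 at 5.35 against 1088 and 9.58 against 1081 CPM, followed by Klra4, Klri2, Klra9, Klra7, Klrb1f, Car2, Klre1 and Spry2. Gzma was at 786 against 8155 and 486 against 10274 CPM. Type II interferon response genes had medians of 0.57 and 0.57 over NK cells (18 genes, 2 of them past 2-fold in both libraries). Markers of other cells were also higher in this comparison, with medians of 0.63 and 0.31 for dendritic cells (6 genes), 0.70 and 0.16 for monocytes (5 genes) and 0.32 and 0.12 for macrophages (9 genes), and their part in the interferon values was not tested. Glycolysis genes had 0.45 and 0.49 (15 genes).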

How the data were processed

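The authors sorted Cd45+ cells of B16-F10 tumors, made 1 BD Rhapsody whole transcriptome library per genotype from pooled tumor pieces, and processed the reads with fastp, UMI-tools and STAR on Ensembl 100 (the labels name GRCm38), per the study's methods and the submitters' processing notes, which also name CASAVA 1.8 and Seurat. The deposited values are UMI counts per gene and cell, not normalized. The study states about 6000 sorted cells per sample, the files hold 6408 and 5896 barcodes, and 6284 and 5794 had under 10% mitochondrial UMIs. No other filter on cells and no doublet caller was used. Of 31253 gene IDs, 31107 matched GENCODE M21 (GRCm38), and where IDs share a symbol (91 symbols) the ID with most UMIs was given the symbol. UMIs of each marker gate were summed per library. Log2 ratios (Irg1-/- over Irg1+/+) used 0.5 UMIs added to each sum and the gate's total without mitochondrial genes. Sums have exact Poisson, shares exact Clopper-Pearson and ratios conditional exact 95% intervals, and differences of shares an approximate interval made by adding the squared distances to the Clopper-Pearson limits, all of which cover counting error only. With 1 library per genotype no test was possible, and spread between the 3 pooled mice cannot be seen. A 2-fold call needed 50 UMIs and a list median 20 UMIs per gene. For shares of cells with a UMI each cell was thinned once to 2000 UMIs, where 1 UMI is 500 CPM. The 31 gene lists hold 439 genes, 433 of them in the files.

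The genes named are the marker genes of the gate, genes of the lists (mainly those of the most UMIs or past 2-fold with at least 100 UMIs), the 10 highest and 10 lowest ratios among genes with at least 100 UMIs and a UMI in 10% of cells of a library, the 10 largest folds over CD4 T cells and over NK cells with at least 100 UMIs in each library, and 6 genes of the study (Acod1, Cxcr3, Cxcl9, Cxcl10, Ifng and Tnf). List genes under 100 UMIs that are named were chosen after their values were seen. The members and lists were chosen with earlier results of these data known. Alternatives were other limits on Cd8, C1q and mitochondrial UMIs, other denominators, TMM scaling (edgeR 4.0.16), other minimum sums, 5 UMIs added, mean CPM of cells, thinning and leaving out the cells of most UMIs. The setting without cells rich in MHC class II RNA was chosen after seeing the data. The split by Pdcd1, Havcr2 and Lag3 was also chosen after seeing the data. A few genes that the rule names are not reported here. Calls on simulated counts were checked first. Python 3.11.15 with numpy 2.4.6, scipy 1.17.1 and pandas 2.3.3 was used. No protein sequences were used here.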

Additional observations from a re-analysis of the deposited data

Results flagged for a closer look

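For 59 named genes the log2 ratio of Irg1-/- over Irg1+/+ in CD8 T cells was set beside that in 4 other gates. In 26 of 236 pairs, from 16 genes, both intervals lay away from 0 on opposite sides. The same count was not made over all genes, and many of the named genes were picked for large ratios in CD8 T cells. Whether 26 of 236 is more than for other genes is therefore not known. Each library is a single pool, and the difference between the gates was not tested.

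Cycling CD8 T cells had the opposite sign for Pdcd1 (0.78, at 337 and 581 CPM), Nkg7 (0.41), Gzmk (0.46), Gzmd (0.48), Klrg1 (1.01) and Trgc2 (1.61), which were lower in the non-cycling cells, and for Synj1 (-0.80), Cxcl9 (-1.05) and Xcl1 (-0.47), which were higher there. Pdcd1 thus stood at 277 and 189 CPM in the non-cycling and at the reverse order in the cycling cells.

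NK cells had the opposite sign for the killer genes Gzma (0.33), Prf1 (0.21), Nkg7 (0.36), Gzmd (1.38) and Klrg1 (0.91), for Ccl5 (0.26), for Il7r (-1.23) and for Xcl1 (-0.52).

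Conventional CD4 T cells had the opposite sign for Gzma (1.01), Klrg1 (1.47), Ccr7 (-1.79), Xcl1 (-1.84) and Cxcl9 (-1.01). Foxp3 T cells had it for Gzma (3.08), Klrg1 (0.64), Csf1 (0.81) and Satb1 (-1.18). In these Foxp3 T cells the 10 NK cell markers, led by Gzma itself, summed to 238 CPM in Irg1+/+ and 1473 CPM in Irg1-/-, and of the 6 with at least 20 UMIs all had an interval above 0. Their part in the Gzma value was not tested. In the non-cycling CD8 T cells of the library labelled Irg1-/-, 5 cells held 57.9% of the Ccr7 UMIs, 85.0% of those of Xcl1 and 70.9% of those of Cxcl9. Without the cells dense in myeloid RNA the CD8 ratios of Xcl1 and Ccr7 were -0.44 and -0.23. With these values the sign of both genes was no longer opposite to the gates named above.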

How the results depend on the processing

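No paired analysis was possible because each genotype has 1 library, and for the same reason no replicate could be left out. The share of non-cycling CD8 T cells moved with the gate: for Irg1+/+ and Irg1-/- it was 5.82% and 2.92% with at least 1 Cd8 UMI, 3.25% and 1.31% with at least 4, 0.637% and 0.328% with no C1q UMI, 5.70% and 2.99% with cycling cells, and 5.75% and 2.47% when the gate was set after thinning, and for Irg1+/+ it was 3.64% under 5% mitochondrial UMIs. Irg1+/+ was the higher in each of these. Of cells with Cd3 the shares were 11.05% and 7.80%, and the fold was 1.42 in place of 2.25. The counts of genes 2-fold higher and 2-fold lower, 50 and 75, were 9 and 12 in cells with no C1q UMI, 82 and 123 for the mean of each cell's CPM, 22 and 46 after thinning, 208 and 292 at a minimum of 20 UMIs, 4 and 4 at 200 UMIs and, for the lower, 20 with 5 UMIs added. Of the 50 higher genes, 0 were called again with no C1q UMI, 16 with at least 1 Cd8 UMI, 20 with at least 4, 18 without the cells dense in myeloid RNA, 31 by mean CPM and 6 after thinning, and of the 75 lower genes 1, 36, 39, 43, 55 and 12. Of the 50 higher genes 32 were called again under 5% mitochondrial UMIs and 30 without the cells in the top 5% of UMIs. Fewer cells or UMIs were left with no C1q UMI and after thinning, but at least 1 Cd8 UMI added cells. Whether the lost calls come from the cells counted or from counting error near 2-fold was not tested. Cxcl10 had -0.040 with at least 4 Cd8 UMIs, and the cause was not tested. The medians of the cytotoxic (-0.51 to -0.26), secreted (-0.61 to -0.29), inhibitory (-0.86 to -0.13), residency (-0.43 to -0.24), exhaustion factor (-0.37 to -0.02) and immediate early lists (0.13 to 0.40) kept their sign in 10 of 10 alternatives, that of naive and memory genes in 9 of 10 (-0.40 to 0.57). The median of MHC class I presentation genes also kept its sign in 10 of 10 (0.03 to 0.16). Those of type II interferon (-0.40 to 0.45), T cell receptor signaling (-0.38 to 0.10) and costimulatory genes (-0.40 to 0.13) kept it in 9 of 10. Type I interferon genes kept it in 8 of 10 (-0.92 to 0.27) and effector differentiation genes in 7 of 10 (-0.16 to 0.09). Single genes turned too, with Ccl5 at 0.39, Gzma at 1.21, Gzmk at 0.28, Tcf7 at -0.91 and Isg15 at -1.20 in cells with no C1q UMI, and Tnf at 0.46 with at least 1 Cd8 UMI. Past 2-fold with all cells counted but not in each alternative were also Cxcl16 (8 of 10, 0.79 at the lowest), Btla (8 of 10, 0.75) and Cxcr6 (10 of 11, -0.93). Other choices of CD8 T cells against the same CD4 T cells and NK cells were added after seeing the data. The count of genes lower than in CD4 T cells, 14, was 24 with at least 1 Cd8 UMI, 46 with no C1q UMI and 27 without the cells dense in myeloid RNA, and that of higher genes, 16, was 7 with no C1q UMI. The count of genes higher than in NK cells, 69, was 185 with at least 1 Cd8 UMI and 27 with no C1q UMI. With 417582 UMIs from 108 cells, Irg1-/- limits the precision.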

Other observations

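Some genes under the minimum for naming also had large ratios, and the 4 given here were picked after their values were seen. Ccl1, a chemokine of activated T cells, had 182 UMIs in 14 Irg1+/+ CD8 T cells and 7 UMIs in 2 Irg1-/- cells (log2 ratio -3.18). Mmp13, a collagenase, had 66 UMIs and 1 UMI. Prnp, the prion protein gene, had 23 and 44 UMIs (2.35) and Tpm3-rs7, a tropomyosin-related sequence, 13 and 52 UMIs (3.38).

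The other marker lists in the CD8 gate were low or uneven. Monocyte markers (7 genes, led by Ly6c2, which CD8 T cells also express) summed to 2449 and 2704 CPM, plasmacytoid dendritic cell markers (5 genes, led by Tcf4) to 39.3 and 74.2 CPM, mast cell markers (4 genes, led by Tpsb2) to 11.6 and 23.9 CPM and gamma delta T cell markers (8 genes in the files, led by Trgv2) to 58.9 and 59.9 CPM. Markers of CD4 and regulatory T cells (8 genes, led by Ctla4) summed to 628 and 472 CPM, with 3 and 2 genes at 0, among them Cd4 and Foxp3, which the gate set to 0. The 9 measured genes of the study's own interest had a median of -0.27, with 2 intervals above 0 and 3 below.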
